A study of Mus musculus with 12 samples.

Results

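Semaphorins, plexins, neuropilins, ephrins and Eph receptors were followed through the reprogramming of mouse fibroblasts. The members were chosen by symbol from the 23420 genes in the counts, as the Sema3 to Sema7, Plxn, Nrp, Efn and Eph genes. There were 53 of them: 20 semaphorins, 2 neuropilins, 9 plexins, 5 ephrin-A ligands, 3 ephrin-B ligands, 9 EphA receptors and 5 EphB receptors. A filter on low counts left 14770 genes and 49 of the members, and Sema3g, Plxnb3, Epha6 and Ephb1 did not pass it.

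RNA was sequenced from 12 libraries, 3 from each of 4 groups. The groups were mouse embryonic fibroblasts (MEF), Stage1 cells at day 6 of reprogramming, Stage2 cells after a further 4 days, and induced pluripotent stem cells (iPSC). All carried a mixed C57BL/6 x 129 background, and per the series text every group other than MEF was sorted for Oct4-GFP, a fluorescent reporter of the pluripotency gene Pou5f1. Neither the reprogramming factors nor the number of cell lines or embryos is stated in the labels. The title and the stage characteristic named different groups in 12 of 12 libraries, and groups were taken from the titles. Nothing in the labels says that the 3 libraries of a group came from separate cultures or embryos, so the spread behind each p-value may be technical in part.

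Gene totals ran from 8916223 to 19011944 counts per library, so a count of 0 bounded a level at 0.158 to 0.336 CPM (gene counts scaled to a total of 1000000). That bound was taken as 3 counts of the library and covers counting error only. It is on unscaled gene totals, before the TMM scaling of the levels below. With that scaling, 1 count was 0.125 CPM in MEF replicate 1 and 0.0602 CPM in MEF replicate 3. Summed over 12 fibroblast markers, levels were 19857 to 26286 CPM in MEF, 20.3 to 28.2 at Stage1, 123 to 180 at Stage2 and 91.9 to 97.6 in iPSC. Over 10 pluripotency markers the sums were 4.58 to 6.14, 2976 to 3111, 5814 to 6249 and 6410 to 7487 CPM in the same order, and Lin28a and Fbxo15 were at 0 in MEF. The libraries titled MEF were the ones with fibroblast markers, and the other 9 libraries the ones with pluripotency markers. That check covers MEF against the rest only, and the names Stage1, Stage2 and iPSC rest on the titles. Xist, the RNA of the silenced X chromosome, stood at 226 CPM in MEF replicate 1 and at 0.267 and 0 CPM in MEF replicates 2 and 3. Of the members, Efnb1, Plxna3 and Plxnb3 are X-linked, and Efnb1 had 57.3, 62.8 and 64.6 CPM in those 3 libraries.

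Semaphorins are secreted or membrane-bound guidance cues that act through plexins, whose cytoplasmic part acts on small GTPases, and class 3 semaphorins mostly need a neuropilin as the ligand-binding co-receptor. Ephrins are tethered to the membrane, ephrin-A by a lipid anchor and ephrin-B by a transmembrane segment, and they bind Eph receptor tyrosine kinases on neighbouring cells, with signals in both directions. Both systems are known for axon guidance, vessel growth, and the repulsion, sorting and adhesion of migrating cells, fibroblasts among them.

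Levels below are CPM scaled by edgeR's TMM factors, as mean ± SD of 3 libraries where a spread is given. A change is called where edgeR's quasi-likelihood test gave a p below 0.05 after Benjamini-Hochberg adjustment over all 14770 genes. In bulk RNA, fewer cells of a type and less RNA per cell cannot be told apart. The comparisons share libraries, so their values are given side by side.

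**Figure D1:**
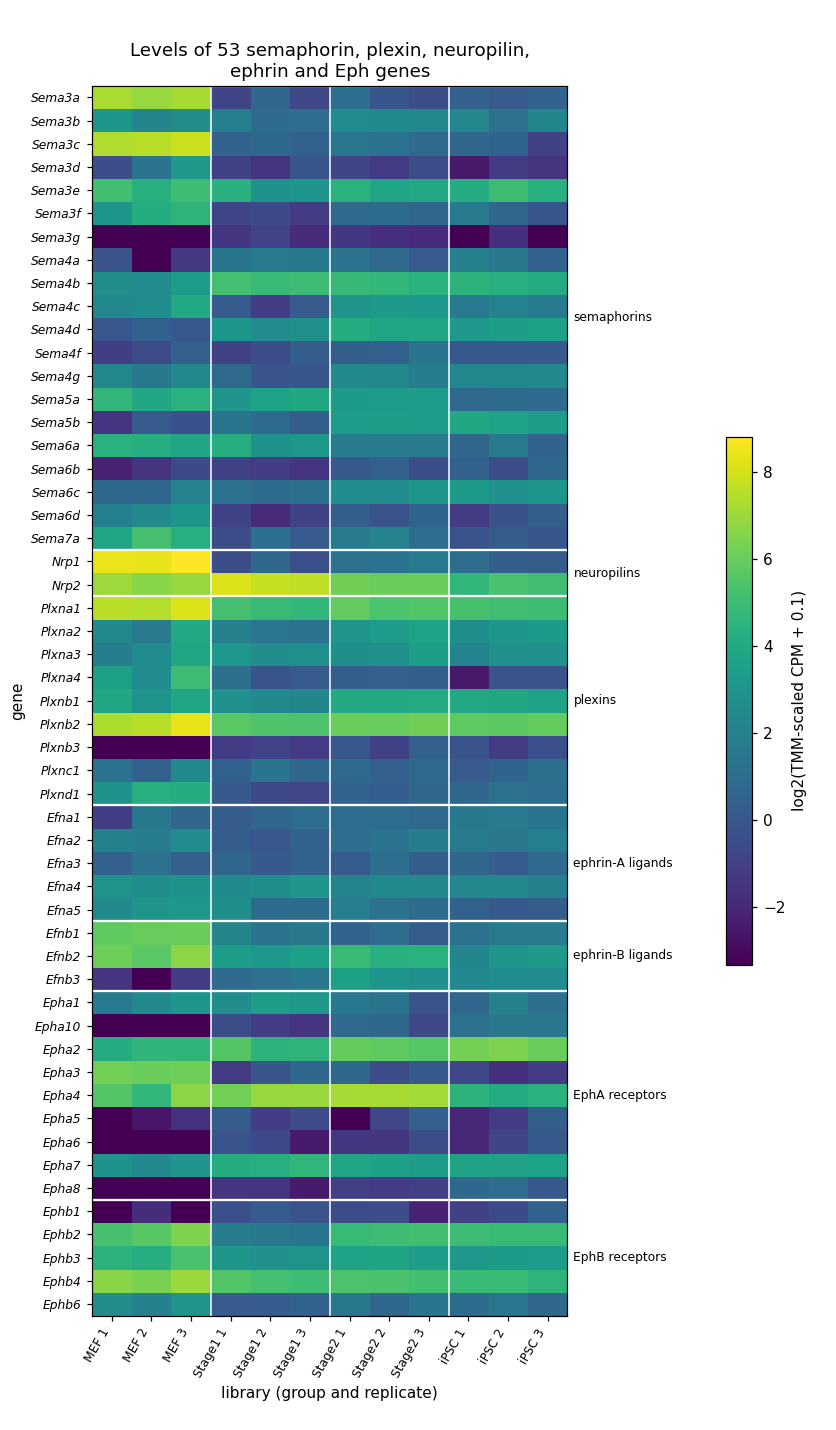
Level of each of the 53 genes (down the page, by family) in each of the 12 libraries (across, in the order MEF, Stage1, Stage2, iPSC), coloured by log2(TMM-scaled CPM + 0.1). Nrp1, Sema3a, Sema3c and Epha3 are bright in the 3 MEF libraries and dark in the other 9, and the Nrp2, Epha2 and Ephb4 rows stay bright in all groups.

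Stage1 cells had lower levels of most members than MEF. Of the 49 tested, 11 were called higher and 27 lower at Stage1 against MEF, while 11 were not called. Among all genes tested, 44.2% were called higher and 36.1% lower. The share of members called in either direction, 77.6%, lay near the 80.4% of all genes, while the median log2 fold change was -1.14 for the members and 0.27 for all genes. All 3 Stage1 libraries lay above all 3 of MEF for 10 of the 49 members and below them for 23, against 43.9% and 35.4% of all genes. Values below are ordered by role, from semaphorins and neuropilins to plexins, ephrins and Eph receptors.

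The class 3 semaphorins, the secreted ones, gave the largest falls among the ligands. Sema3a, a repellent of growing axons, had 0.483, 1.52 and 0.504 CPM in the 3 Stage1 libraries, against 154, 124 and 147 CPM in MEF. Its log2 fold change was -7.44 ± 0.35 (SE; edgeR adjusted p = 1.92e-12). Sema3c, a guide of cardiac outflow and vessel cells, had 1.31, 1.61 and 1.26 CPM in the Stage1 libraries, against 167, 179 and 232 CPM in those of MEF, a change of -7.11 ± 0.28 (edgeR adjusted p = 2.11e-13). The MEF and Stage1 libraries were far apart for both genes, with no overlap. Levels then stayed low, at 1.18 ± 0.76 CPM at Stage2 and 1.22 ± 0.16 CPM in iPSC for Sema3a, and at 2.24 ± 0.50 and 1.11 ± 0.59 CPM for Sema3c. Sema3a was not called between Stage2 and Stage1 or between iPSC and Stage2. Sema3c was near the threshold in iPSC against Stage2, at a log2 fold change of -0.97 (edgeR adjusted p = 0.053). It was called there in 8 of the other fits, among them those with RLE scaling (-1.01, edgeR adjusted p = 0.0361) and library totals (-1.07, edgeR adjusted p = 0.0328). With library totals it was also called higher at Stage2 against Stage1 (0.87, edgeR adjusted p = 0.0399).

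Sema3f, a ligand of Nrp2, had 0.452 ± 0.104 CPM at Stage1 and 16.8 ± 7.76 CPM in MEF, a log2 fold change of -5.20 ± 0.51 (edgeR adjusted p = 3.42e-08). Sema3b and Sema3d also fell, at log2 fold changes of -1.35 and -3.05. In MEF, Sema3d was uneven, at 0.626, 2.40 and 9.46 CPM, and its libraries overlapped those of Stage1 at 0.414, 0.268 and 0.841 CPM. Sema3e binds plexin-D1 without a neuropilin. It had 21.0, 7.15 and 8.24 CPM in the Stage1 libraries, against 35.2, 20.7 and 32.8 CPM in those of MEF (log2 fold change -1.27 ± 0.34, edgeR adjusted p = 0.00294), and the 2 groups overlapped. In iPSC it had 18.0, 31.6 and 20.7 CPM, not called against MEF at a log2 fold change of -0.33 ± 0.34 (edgeR adjusted p = 0.376). Sema3d, Sema3a, Sema3e and Sema3c lie on chromosome 5 between positions 12383385 and 17730268 (mm10). These neighbours had different levels in iPSC, with Sema3e at 23.4 ± 7.16 CPM and Sema3a, Sema3c and Sema3d at 0.229 to 1.22 CPM.

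Among the membrane-bound semaphorins, 4 were called higher at Stage1 than in MEF. Of all 19 tested semaphorins, 21.1% were called higher and 57.9% lower, against 44.2% and 36.1% of all genes. Sema4d, a ligand of plexin-B1, had 8.08, 5.81 and 6.64 CPM in the Stage1 libraries, against 0.876, 1.27 and 0.903 CPM in those of MEF (log2 fold change 2.72 ± 0.29, edgeR adjusted p = 1.08e-07). Sema4b had 35.9, 29.7 and 32.2 CPM in the Stage1 libraries, against 6.38, 5.81 and 10.5 CPM in those of MEF (2.09 ± 0.22, edgeR adjusted p = 1.09e-07). Sema4a and Sema5b were also higher, by 3.20 ± 0.70 and 1.35 ± 0.40 on the log2 scale. Sema5b was not called with a fit of Stage1 and MEF alone (1.31, edgeR adjusted p = 0.054). Sema4a levels were low in both groups, at 2.79 ± 0.266 and 0.351 ± 0.378 CPM.

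Other membrane semaphorins moved the other way. Sema4c, another plexin-B ligand, had 1.04, 0.358 and 1.01 CPM in the Stage1 libraries, against 5.01, 5.88 and 16.3 CPM in those of MEF, a log2 fold change of -3.48 ± 0.47 (edgeR adjusted p = 2.43e-06). Sema7a, which is anchored to the membrane by a lipid and acts through integrins and plexin-C1, had 0.621, 2.06 and 1.01 CPM in the Stage1 libraries, against 14.3, 37.0 and 19.4 CPM in those of MEF (-4.29 ± 0.44, edgeR adjusted p = 7.48e-08). Sema5a, Sema4g and Sema6d were called lower too, at -0.82, -1.89 and -4.06. Sema6a, Sema6b, Sema6c and Sema4f were not called, though Sema6a was called lower in 2 other fits. Those were without Stage1 replicate 1 (-1.17, edgeR adjusted p = 0.00363) and without MEF replicate 3 (-0.78, edgeR adjusted p = 0.0444). Sema3g, a class 3 gene under the filter, had 11 counts over the Stage1 libraries and 0 in MEF. It was at least 3.86-fold higher at Stage1 over a floor of 3 counts per group, with the error of the 11 counts left out.

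The neuropilins moved in opposite directions. Nrp1, co-receptor of Sema3a and of the vascular growth factor VEGF, had 0.621, 1.61 and 0.673 CPM in the Stage1 libraries, against 351, 338 and 449 CPM in those of MEF (log2 fold change -8.64 ± 0.28, edgeR adjusted p = 2.40e-14). It was the member with the most RNA per kilobase in MEF, at 38.8 ± 6.21 CPM per kb of exon, and its fall was the largest among the 49. Nrp2, co-receptor of Sema3f, had 284, 213 and 202 CPM in the Stage1 libraries, against 133, 102 and 124 CPM in those of MEF (0.96 ± 0.17, edgeR adjusted p = 4.47e-05). The libraries did not overlap for either gene. At Stage1 Nrp2 ranked first of the members per kilobase, at 19.7 ± 3.74 CPM per kb, and the summed neuropilin level was 234 ± 44.1 CPM against 499 ± 68.1 CPM in MEF.

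The promoters of both neuropilin genes are shown because the genes parted ways at Stage1. They are the 250 bases before the transcription start from RefSeq (GRCm38.p6), on the plus strand at chr8:128358823-128359072 for Nrp1 and at chr1:62703067-62703316 for Nrp2. Capitals mark the GC box GGGCGG, or CCGCCC on the other strand.
Nrp1: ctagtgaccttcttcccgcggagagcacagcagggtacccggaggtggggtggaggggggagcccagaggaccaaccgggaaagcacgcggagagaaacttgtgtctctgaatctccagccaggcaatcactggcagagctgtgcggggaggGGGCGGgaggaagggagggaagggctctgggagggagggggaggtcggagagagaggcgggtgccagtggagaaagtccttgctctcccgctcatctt
Nrp2: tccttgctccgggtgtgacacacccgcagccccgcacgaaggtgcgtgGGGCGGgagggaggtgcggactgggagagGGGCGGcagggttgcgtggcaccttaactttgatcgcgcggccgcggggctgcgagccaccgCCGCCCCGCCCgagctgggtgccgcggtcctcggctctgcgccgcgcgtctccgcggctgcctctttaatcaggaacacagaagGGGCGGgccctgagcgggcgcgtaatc
The Nrp1 window holds 1 GC box and the Nrp2 window 5, of which those on the minus strand overlap in 1 run of capitals. Of 61 member promoters from 47 matched genes, 75.4% held a GC box, against 32.7% of 32851 promoters of all genes, and the median GC content was 64.4% against 52.4%.

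Plexins, the signalling receptors of semaphorins, were lower at Stage1 in 6 of the 8 tested, and the other 2 were not called. That was 75% called, all lower, against 80.4% of all genes called in either direction and 36.1% called lower. Plxna1 had 37.3, 28.4 and 26 CPM in the Stage1 libraries, against 185, 173 and 292 CPM in those of MEF (log2 fold change -2.82 ± 0.21, edgeR adjusted p = 1.01e-09). Plxnb2 had 51.9, 44.9 and 43.0 CPM in the Stage1 libraries, against 158, 181 and 341 CPM in those of MEF (-2.28 ± 0.22, edgeR adjusted p = 3.00e-08). Plxnd1, a vascular plexin, fell furthest among them, at a log2 fold change of -4.45 ± 0.42, to 0.669 ± 0.258 CPM at Stage1 against 14.97 ± 6.58 CPM in MEF. Plxna4 and Plxnb1 also fell, at -3.60 and -1.14. Plxna2 was called lower at -1.49, but without MEF replicate 3 its log2 fold change was -0.50 (edgeR adjusted p = 0.187). That library had 15.8 CPM and the other MEF libraries 5.38 and 3.21. Plxna3 and Plxnc1 were not called, and Plxnb3 had 14 counts at Stage1 and 0 in MEF. Plxnb3 was at least 4.92-fold higher at Stage1 over a floor of 3 counts per group, with the error of the 14 counts left out.

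Among the ephrin-B ligands, Efnb1 and Efnb2 were abundant in MEF and Efnb3 was close to 0 there. Efnb1 had 4.56, 2.41 and 2.69 CPM in the Stage1 libraries, against 57.3, 62.8 and 64.6 CPM in those of MEF (log2 fold change -4.24 ± 0.26, edgeR adjusted p = 5.72e-11). Efnb2, a ligand of Ephb4 and marker of arterial endothelium, had 10.7, 8.76 and 11.3 CPM in the Stage1 libraries, against 70.1, 52.6 and 105 CPM in those of MEF (-2.88 ± 0.27, edgeR adjusted p = 2.15e-08). Efnb3 went the other way, with 1.80, 2.23 and 2.77 CPM at Stage1 and 0.25, 0 and 0.361 CPM in MEF (3.42 ± 0.56, edgeR adjusted p = 2.29e-05). The ephrin-A ligands were low throughout, at a summed 13.9 ± 1.98 CPM at Stage1 and 22.0 ± 3.15 CPM in MEF, and Efna2 and Efna5 were called lower. Efna5 was not called without MEF replicate 2 or 3 or Stage1 replicate 2 or 3, at log2 fold changes of -1.05 to -0.80 (edgeR adjusted p = 0.0503 to 0.122), nor with library totals in place of TMM (-0.90, edgeR adjusted p = 0.0656) or a fit of these 2 groups alone (-1.17, edgeR adjusted p = 0.0512).

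EphB receptors, which bind mainly ephrin-B ligands, fell in all 4 tested, where 36.1% of all genes were called lower and 80.4% in either direction. Ephb2 had 3.45, 2.77 and 2.52 CPM in the Stage1 libraries, against 38.4, 50.3 and 88.4 CPM in those of MEF (log2 fold change -4.33 ± 0.28, edgeR adjusted p = 1.32e-10). Ephb4, the venous partner of Efnb2, had 46.1, 36.7 and 32.6 CPM in the Stage1 libraries, against 99.4, 82.9 and 125 CPM in those of MEF (-1.41 ± 0.18, edgeR adjusted p = 8.21e-07). No library of the 2 groups overlapped for these genes. Ephb3 and Ephb6 fell too, at -1.85 and -2.41. Ephb1 had 31 counts at Stage1 and 3 in MEF, a ratio of 10.9 (95% counting interval 3.40 to 55.6).

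EphA receptors, which bind mainly ephrin-A ligands, were the one family with more members called higher than lower at Stage1: 5 against 1 of 8. That was 62.5% higher and 12.5% lower, against 44.2% and 36.1% of all genes. With no count in MEF, Epha8 and Epha10 could be called in the higher direction only. The calls on Epha4 and Epha5 were lost in other fits given below. The fall was that of Epha3, with 0.345, 0.805 and 1.60 CPM in the Stage1 libraries, against 74.2, 66.2 and 70.4 CPM in those of MEF (log2 fold change -6.29 ± 0.36, edgeR adjusted p = 2.30e-11). Epha7 had 18.4, 19.7 and 25.5 CPM in the Stage1 libraries, against 7.38, 5.21 and 7.83 CPM in those of MEF (1.64 ± 0.22, edgeR adjusted p = 1.86e-06). Epha4, a receptor that binds both ephrin classes, had 74.6, 124 and 122 CPM in the Stage1 libraries, against 47.5, 26.2 and 103 CPM in those of MEF. Its groups overlapped and the call was near the threshold, at 0.85 ± 0.36 (edgeR adjusted p = 0.0417). Without MEF replicate 1 or 2 or Stage1 replicate 2 or 3 it was not called, at 0.48 to 0.75 (edgeR adjusted p = 0.102 to 0.144), nor with no filter (0.85, edgeR adjusted p = 0.111) or with these 2 groups alone (0.81, edgeR adjusted p = 0.0785). Epha5 was called on 27 counts at Stage1 and 5 in MEF, and lost the call without any of 6 libraries: MEF replicate 1 or 2, Stage1 replicate 1 or 3, Stage2 replicate 2 or iPSC replicate 2, at log2 fold changes of 1.89 to 2.54 (edgeR adjusted p = 0.0549 to 0.180). Epha8, Epha10 and Epha6 had no count in MEF, and were at least 2.81-fold, 5.62-fold and 6.32-fold higher at Stage1. These folds rest on 8, 16 and 18 counts at Stage1, and the counting error of those is left out. Epha2 had 46.6, 23.0 and 23.4 CPM in the Stage1 libraries, against 18.4, 24.6 and 24.8 CPM in those of MEF, and was not called (edgeR adjusted p = 0.0791). With library totals it was called higher (0.64, edgeR adjusted p = 0.0166), as without Stage1 replicate 2 or 3 (0.62 to 0.64, edgeR adjusted p = 0.0237 to 0.0269).

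**Figure D2:**
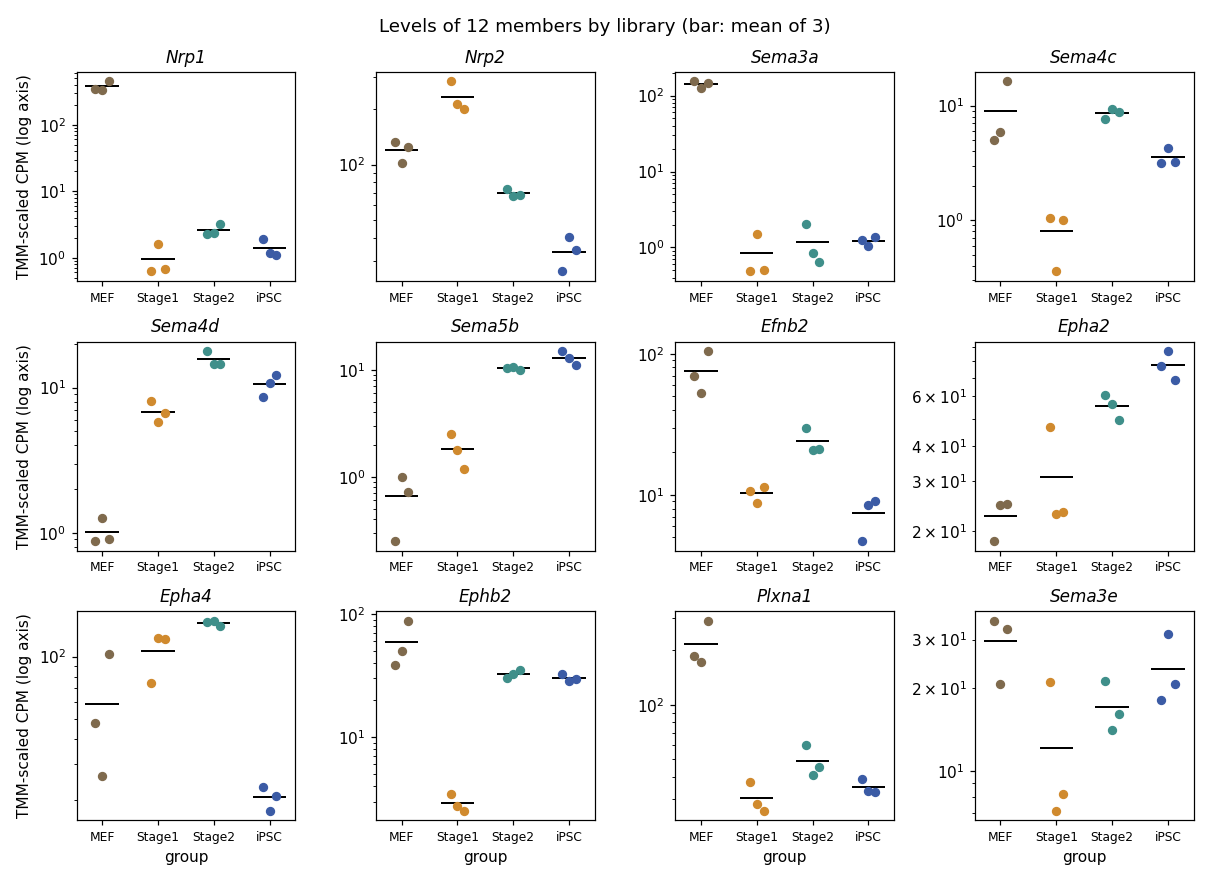
TMM-scaled CPM on a log axis for 12 members, 1 panel each, with a point for each library of MEF, Stage1, Stage2 and iPSC and a bar at the mean of 3. Nrp1 stands at 0.621 to 1.61 CPM at Stage1 and at 338 to 449 CPM in MEF, Nrp2 peaks at Stage1 with 202 to 284 CPM, and Ephb2 dips to 2.52 to 3.45 CPM at Stage1 and stands at 30.1 to 34.9 CPM at Stage2.

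At Stage2 more members were higher than lower. Against Stage1, 18 of the 49 members were called higher and 5 lower at Stage2, while 20.6% of all genes were called higher and 19.8% lower. The median log2 fold change was 0.66 for the members and 0.02 for all genes, and 46.9% of members were called in either direction, against 40.4% of all genes. The Stage2 libraries lay above all those of Stage1 for 26 of the 49 members and below them for 7, against 29.4% and 30.2% of all genes. The split depends on the scaling: with library totals in place of TMM, 23 members were called higher and 5 lower, and of all genes 4023 were called higher and 1679 lower, against 3048 and 2921 with TMM. The rises took in 9 semaphorins, 3 plexins, Nrp1, Efna2, Efnb2, Efnb3, Epha2 and Ephb2.

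Ephb2 rose most, with 30.1, 32.5 and 34.9 CPM at Stage2, against 3.45, 2.77 and 2.52 CPM at Stage1 (log2 fold change 3.47 ± 0.27, edgeR adjusted p = 5.56e-08). Sema4c followed, with 7.61, 9.37 and 8.85 CPM at Stage2, against 1.04, 0.358 and 1.01 CPM at Stage1 (3.39 ± 0.47, edgeR adjusted p = 2.63e-05). At Stage2, Ephb2 stood at 55.0% and Sema4c at 95.2% of the MEF mean, while the summed fibroblast markers stood at 0.694% of it. The Sema4c mean in MEF was raised by replicate 3, at 16.3 CPM against 5.01 and 5.88 CPM in replicates 1 and 2. The marker sum is weighted to abundant genes. Col1a2 averaged 35.8 CPM at Stage2 and 6889 CPM in MEF, and the less abundant Pdgfra 4.38 and 34.3 CPM. The fibroblast markers also rose: 10 of 12 were called higher at Stage2 against Stage1, with a median log2 fold change of 2.19, and their sum had been 0.111% of the MEF mean at Stage1. Their part in the members' rises was not tested. Sema5b had 10.4, 10.6 and 9.95 CPM at Stage2, against 2.49, 1.79 and 1.18 CPM at Stage1 (2.48 ± 0.33, edgeR adjusted p = 1.54e-05). Sema4d, Sema4g, Sema6c and Sema3f rose by 1.19, 1.99, 1.73 and 1.88 on the log2 scale. Nrp1 was called higher by 1.46 ± 0.33, at 2.24, 2.32 and 3.17 CPM at Stage2 and 0.621 to 1.61 CPM at Stage1. Its mean was 0.680% of its MEF mean at Stage2 and 0.255% at Stage1.

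Receptors and B-type ephrins gave further rises. Plxnb1 had 17.2, 17.0 and 17.7 CPM at Stage2, against 7.04, 5.36 and 4.62 CPM at Stage1 (log2 fold change 1.60 ± 0.26, edgeR adjusted p = 0.000112). Plxna2 rose by 1.80 ± 0.45. Efnb3 had 11.8, 8.17 and 7.04 CPM at Stage2, against 1.80 to 2.77 CPM at Stage1 (1.98 ± 0.39, edgeR adjusted p = 0.000604), and Efnb2 rose by 1.22 ± 0.26. Epha2 had 60.5, 56.5 and 49.4 CPM at Stage2, against 46.6, 23.0 and 23.4 CPM at Stage1 (0.83 ± 0.23, edgeR adjusted p = 0.00713). Without Stage1 replicate 2 or 3 it was not called, at 0.65 (edgeR adjusted p = 0.0505 to 0.0522). Of the 18 rises, 12 kept the call in all 12 fits without 1 library.

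The calls on Efna2, Plxna1, Sema3b, Sema6d and Sema7a at Stage2, at log2 fold changes of 0.67 to 1.68, were each lost in some of the fits without 1 library. Efna2 was not called without Stage1 replicate 2 or Stage2 replicate 3 (0.96 to 1.10, edgeR adjusted p = 0.0742 to 0.0977). Plxna1 was not called without Stage1 replicate 2 or 3 or Stage2 replicate 1 (0.49 to 0.62, edgeR adjusted p = 0.0608 to 0.0931). For Sema3b it was Stage1 replicate 2 or 3 or any single Stage2 library (0.91 to 1.13, edgeR adjusted p = 0.0514 to 0.113). For Sema6d it was any single Stage1 library or Stage2 replicate 1 or 3 (1.40 to 1.85, edgeR adjusted p = 0.0534 to 0.116), and for Sema7a Stage1 replicate 1 or 3 or Stage2 replicate 1 or 2 (0.99 to 1.3, edgeR adjusted p = 0.0602 to 0.123).

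The falls at Stage2 were those of Nrp2, Sema6a, Epha1, Efnb1 and Epha7. Nrp2 had 73.4, 67.8 and 68.0 CPM at Stage2, against 284, 213 and 202 CPM at Stage1 (log2 fold change -1.74 ± 0.17, edgeR adjusted p = 6.50e-07). Sema6a, a ligand of plexin-A2 and plexin-A4, had 3.32, 3.45 and 3.23 CPM at Stage2, against 18.8, 7.33 and 8.66 CPM at Stage1 (-1.80 ± 0.36, edgeR adjusted p = 0.00073). Epha1 had 2.93, 2.47 and 0.775 CPM at Stage2, against 6.01, 10.6 and 9.16 CPM at Stage1 (-2.09 ± 0.47, edgeR adjusted p = 0.00185). These 3 genes had no overlap between the groups. Efnb1 had 1.37, 1.90 and 1.10 CPM at Stage2, against 4.56, 2.41 and 2.69 CPM at Stage1 (-1.16 ± 0.29, edgeR adjusted p = 0.00463). Epha7, at -0.77, was not called without Stage1 replicate 3 (-0.63, edgeR adjusted p = 0.0507).

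Promoters of Ephb2 and Epha2 are shown as those of the member with the largest rise at Stage2 and of the member with the highest level per kilobase in iPSC. Both are RefSeq windows of 250 bases before the start (GRCm38.p6), at chr4:136836013-136836262 on the minus strand for Ephb2 and at chr4:141300971-141301220 on the plus strand for Epha2. Capitals mark the E-box CAGGTG bound by Zeb and Snail factors (in Ephb2), and in Epha2 the TEAD site GGAATG, here as CATTCC on the other strand, and the GC box as CCGCCC.
Ephb2: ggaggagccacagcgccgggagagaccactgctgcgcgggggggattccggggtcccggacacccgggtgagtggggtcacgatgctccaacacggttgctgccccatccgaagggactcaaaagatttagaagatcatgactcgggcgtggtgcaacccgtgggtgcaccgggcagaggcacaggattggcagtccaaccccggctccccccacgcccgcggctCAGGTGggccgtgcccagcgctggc
Epha2: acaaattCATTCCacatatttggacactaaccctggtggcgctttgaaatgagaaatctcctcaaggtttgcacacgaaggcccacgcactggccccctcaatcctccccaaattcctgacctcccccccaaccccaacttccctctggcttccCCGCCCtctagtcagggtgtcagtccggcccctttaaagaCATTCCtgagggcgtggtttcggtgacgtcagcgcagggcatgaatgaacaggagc
CAGGTG or its reverse complement occurred in 13.1% of member promoters and 17.2% of all promoters, and GGAATG in 11.5% and 12.6%. The AP-1 site TGANTCA occurred in 4.92% of member promoters against 6.75% of all, and the octamer ATGCAAAT in 0 of the 61 against 1.60% of all, with both strands searched.

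**Figure D3:**
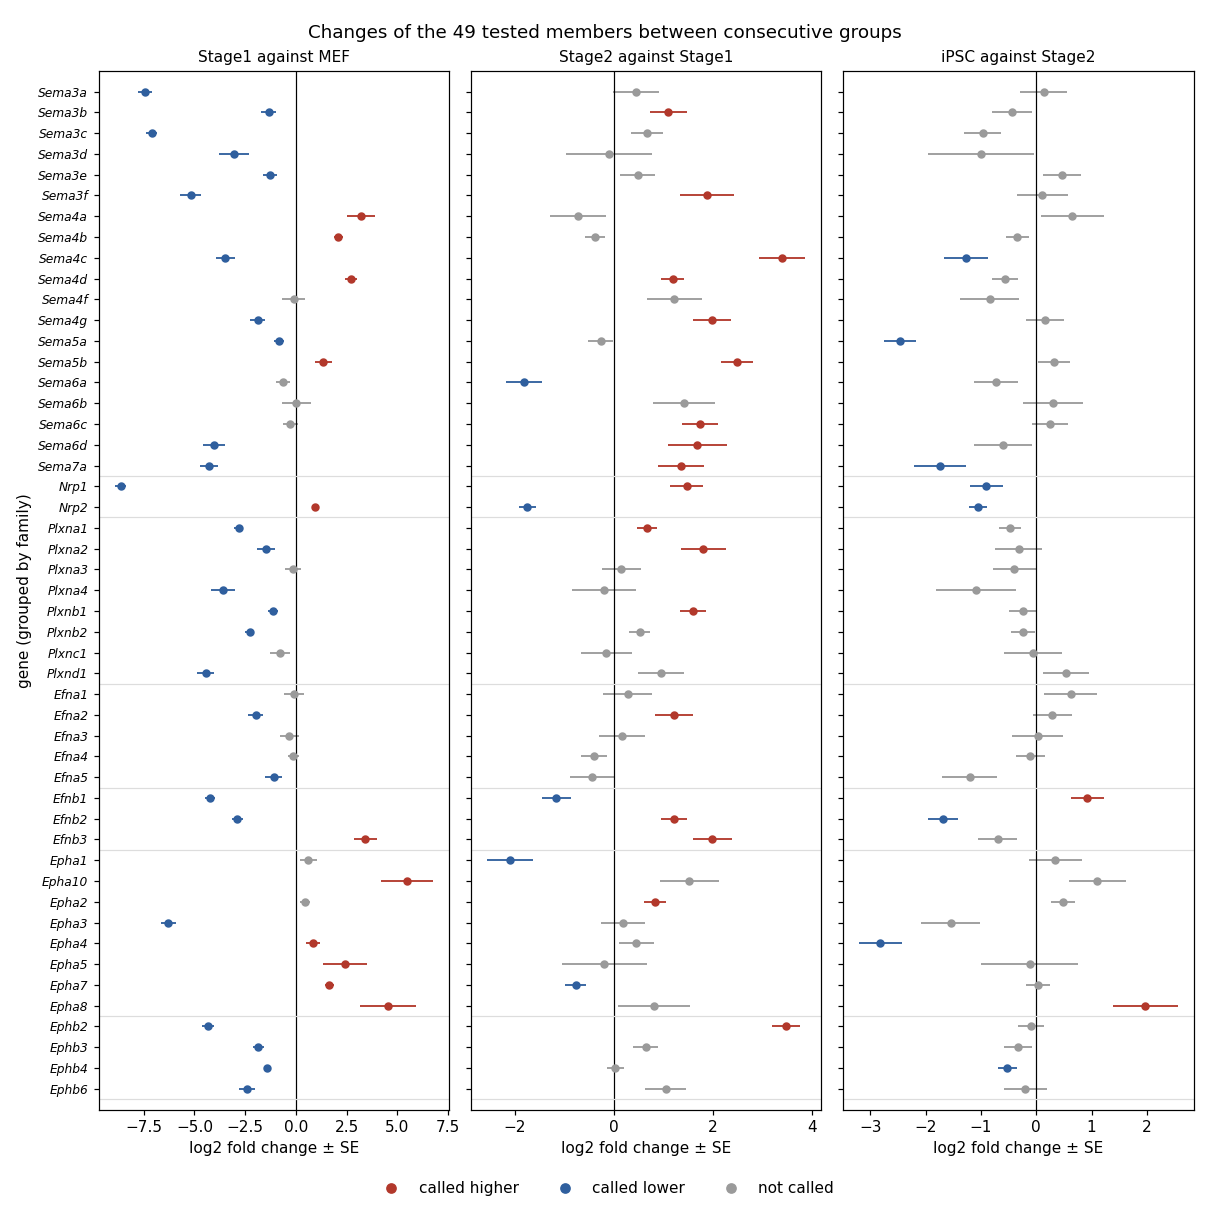
Log2 fold change ± SE of each of the 49 tested members in 3 comparisons of consecutive groups, with Stage1, Stage2 and iPSC each set against the group before it. Most points lie left of 0 in the first panel, with 27 called lower, and right of 0 in the second, with 18 called higher. Epha8 and Epha10 have no count in MEF, so their values in the first panel depend on the prior count and are no bound.

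From Stage2 to iPSC few members were called, at a share near that of all genes. In iPSC against Stage2, 2 of 49 were called higher and 8 lower, while 9.21% of all genes were called higher and 8.87% lower. The members called in either direction made up 20.4%, against 18.1% of all genes. All iPSC libraries lay above those of Stage2 for 7 of the 49 members and below them for 21, against 24.9% and 21.3% of all genes. By that measure a smaller share of members than of all genes lay above, and a larger share below. With library totals, 1 member was called higher and 10 lower, and of all genes 888 were called higher and 1707 lower, against 1360 and 1310 with TMM. Of the 12 fibroblast markers, 1 was called higher and 8 lower in iPSC against Stage2. The falls that kept the call in all 12 fits without 1 library were those of Epha4, Sema5a, Efnb2 and Nrp2. Epha4 had 23.2, 17.8 and 21.1 CPM in iPSC, against 147, 149 and 141 CPM at Stage2 (log2 fold change -2.82 ± 0.38, edgeR adjusted p = 0.000531). It had been first of the members per kilobase at Stage2, at 18.1 ± 0.56 CPM per kb. Sema5a had 1.68, 1.87 and 1.78 CPM in iPSC, against 9.66, 10.1 and 9.95 CPM at Stage2 (-2.47 ± 0.29, edgeR adjusted p = 5.18e-05). Efnb2 had 4.70, 8.46 and 9.0 CPM in iPSC, against 29.9, 20.8 and 21.2 CPM at Stage2 (-1.69 ± 0.27, edgeR adjusted p = 0.000679).

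Nrp2 was lower again, with 26.2, 40.4 and 34.1 CPM in iPSC, against 73.4, 67.8 and 68.0 CPM at Stage2 (-1.05 ± 0.17, edgeR adjusted p = 0.000782). The other 6 calls were each lost without certain libraries. Sema4c (-1.27) was not called without any single Stage2 or iPSC library (-1.42 to -1.17, edgeR adjusted p = 0.0713 to 0.136), and Sema7a (-1.74) without Stage2 replicate 1 or 2 or iPSC replicate 1 or 3 (-1.69 to -1.46, edgeR adjusted p = 0.0547 to 0.0829). Nrp1 (-0.90) was not called without Stage1 replicate 3, any single Stage2 library or iPSC replicate 2 or 3 (-0.96 to -0.69, edgeR adjusted p = 0.0621 to 0.219), nor with these 2 groups alone (-0.94, edgeR adjusted p = 0.0563). Ephb4 (-0.52) lost its call without Stage1 replicate 2 or 3 or any single Stage2 or iPSC library (-0.57 to -0.43, edgeR adjusted p = 0.0639 to 0.181). These 4 genes had iPSC means of 0.905 to 27.3 CPM. Efnb1 (0.92) was not called without Stage2 replicate 1 or 3 or iPSC replicate 2 or 3 (0.76 to 0.91, edgeR adjusted p = 0.102 to 0.156), with library totals (0.82, edgeR adjusted p = 0.0736) or with these 2 groups alone (0.87, edgeR adjusted p = 0.0673). Epha8 (1.97) was not called without Stage1 replicate 2, any single Stage2 library or iPSC replicate 1 or 2 (1.73 to 2.01, edgeR adjusted p = 0.052 to 0.131), nor with no filter (1.97, edgeR adjusted p = 0.0796). Without any 1 of the Stage2 or iPSC libraries 4 or 5 members were called lower and 0 or 1 higher, and without Stage1 replicate 2 1 was called higher.

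Set against MEF, iPSC had 11 members called higher and 26 lower, while 44.9% of all genes were called higher and 35.8% lower. In either direction it was 75.5% of members and 80.8% of all genes. Of the 49 members, the libraries did not overlap for 11 above MEF and 25 below it, against 45% and 35.1% of all genes. Epha2, the receptor with the highest level per kilobase in iPSC at 16.6 ± 1.98 CPM per kb, had 77.2, 87.0 and 68.5 CPM in iPSC, against 18.4, 24.6 and 24.8 CPM in MEF (log2 fold change 1.77 ± 0.23, edgeR adjusted p = 1.59e-06). Sema5b had 14.9, 12.8 and 11.1 CPM in iPSC, against 0.25, 1.00 and 0.723 CPM in MEF (4.17 ± 0.37, edgeR adjusted p = 9.88e-09). Efnb3 had 5.03, 5.83 and 5.69 CPM in iPSC, against 0.25, 0 and 0.361 CPM in MEF (4.71 ± 0.53, edgeR adjusted p = 2.53e-07). Sema4d and Sema4a were higher by 3.34 ± 0.29 and 3.13 ± 0.70, and Sema6c by 1.70 ± 0.35. Epha10 and Epha8, with no count in MEF, were at least 35.0-fold and 20.1-fold higher in iPSC.

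On the other side stood Nrp1 (log2 fold change -8.08 ± 0.27), Epha3 (-7.64 ± 0.40), Sema3c (-7.41 ± 0.29) and Sema3a (-6.86 ± 0.33) in iPSC against MEF. Sema4c, at -1.36, was not called without MEF replicate 3 (-0.61, edgeR adjusted p = 0.0879). Efna4 (-0.64) and Epha1 (-1.13) were not called without MEF replicate 3 or iPSC replicate 1 or 3, at -0.67 to -0.51 (edgeR adjusted p = 0.051 to 0.129) and -1.0 to -0.76 (edgeR adjusted p = 0.0967 to 0.153). With library totals these were -0.36 (edgeR adjusted p = 0.215) and -0.85 (edgeR adjusted p = 0.086), and Efna4 was not called with no filter either (-0.62, edgeR adjusted p = 0.0667). Sema6b (1.74) was not called without iPSC replicate 3 (1.46, edgeR adjusted p = 0.0652).

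Over the 4 comparisons, 10 members were called lower at Stage1 against MEF and in iPSC against MEF and in neither step between: Sema3a, Sema3c, Sema3d, Plxna4, Plxnb2, Plxnd1, Efna5, Epha3, Ephb3 and Ephb6. Of these, 5 lay just outside the threshold in a step between and were called there in 8 or 9 of the other fits. They were Ephb3 (0.64, edgeR adjusted p = 0.0544), Ephb6 (1.04, edgeR adjusted p = 0.0511) and Plxnb2 (0.52, edgeR adjusted p = 0.0581) at Stage2 against Stage1, and Epha3 (-1.54, edgeR adjusted p = 0.0519) and Sema3c in iPSC against Stage2. The pattern of 5 others, Sema3b, Sema4g, Plxna2, Plxnb1 and Efna2, was lower at Stage1, higher at Stage2 and not called after that or against MEF. As given above, the Stage1 call on Plxna2 and the Stage2 calls on Sema3b and Efna2 were lost without certain libraries. Without MEF replicate 3, Plxna2 was called higher in iPSC against MEF (0.98, edgeR adjusted p = 0.0113). Sema3b was called lower there without MEF replicate 2 (-0.92, edgeR adjusted p = 0.031) and with the replicate block (-0.71, edgeR adjusted p = 0.0491). A further 4 were called lower at Stage1, higher at Stage2, lower in iPSC and lower against MEF (Nrp1, Efnb2, Sema4c and Sema7a). Another 3, Sema4d, Sema5b and Efnb3, were called higher at Stage1, higher at Stage2 and higher in iPSC against MEF. Of the 49, 28 had their highest mean in MEF, 6 at Stage1, 7 at Stage2 and 8 in iPSC. The shares of all genes with these patterns or highest groups were not counted. These counts therefore describe the members only and do not set them apart from other genes. Plxna3, Plxnc1, Sema4f, Efna1 and Efna3 were called in none of the 4 comparisons in the fit of all groups, with group means of 0.711 to 7.94 CPM. Without MEF replicate 2, Plxnc1 was called lower at Stage1 and in iPSC against MEF (edgeR adjusted p = 0.0301 and 0.0123). Efna1 was then called higher in iPSC against MEF (edgeR adjusted p = 0.0132), as with library totals (edgeR adjusted p = 0.042). Sema4f was called higher at Stage2 against Stage1 with these 2 groups alone (edgeR adjusted p = 0.04).

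**Figure D4:**
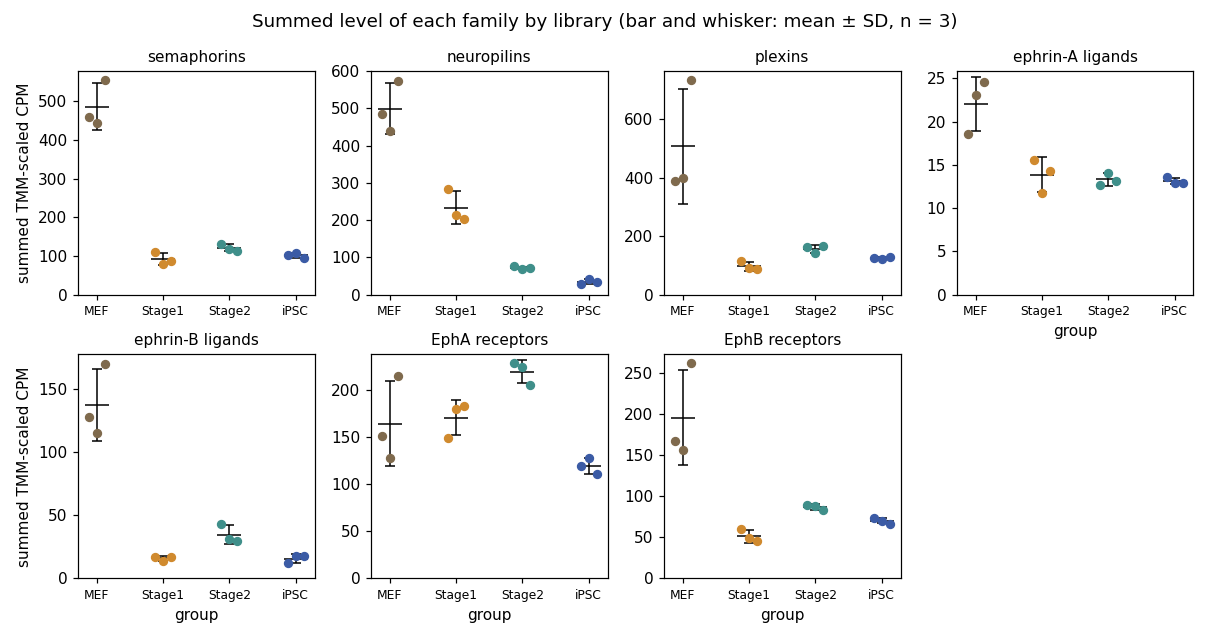
Sum of TMM-scaled CPM over each of the 7 families in each library, with the mean ± SD of 3 libraries per group. All sums but that of EphA are highest in MEF: semaphorins 486, neuropilins 499, plexins 506, ephrin-A 22.0, ephrin-B 138 and EphB 195 CPM. The EphA sum is 164 CPM in MEF, 170 at Stage1, 219 at Stage2 and 119 in iPSC.

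Family sums differed between receptor families. The EphA sum was 170 ± 18.6 CPM at Stage1 and 164 ± 44.7 CPM in MEF, and the EphB sum 51.0 ± 7.67 CPM at Stage1 and 195 ± 57.7 CPM in MEF. The plexin sum was 97.1 ± 14.5 CPM at Stage1 and 506 ± 196 CPM in MEF. These sums are dominated by a few genes, Epha4, Epha2 and Epha3 for EphA and Ephb4 and Ephb2 for EphB, and longer transcripts weigh more.

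Genes that work beside these receptors were counted from 3 lists, to be read against the shares of all genes, 44.2% higher and 36.1% lower at Stage1 against MEF, 20.6% and 19.8% at Stage2 against Stage1, and 9.21% and 8.87% in iPSC against Stage2. Of 35 tested semaphorin signalling partners, 5 were higher and 25 lower at Stage1 against MEF (14.3% and 71.4%), and 14 higher and 5 lower at Stage2 against Stage1 (40.0% and 14.3%). Mical2, an actin-oxidising enzyme of the Mical family, had 0.923 ± 0.101 CPM at Stage1 and 380 ± 96.5 CPM in MEF (log2 fold change -8.66 ± 0.27, edgeR adjusted p = 1.55e-14). Farp1, a guanine nucleotide exchange factor, and Dpysl3, a collapsin response mediator protein, fell at log2 fold changes of -5.32 and -4.84. Rnd1, a plexin-binding GTPase, rose by 0.91 and Rap1a by 0.41. At Stage2 against Stage1, Nrcam, Mical1 and Crmp1 rose by 3.67, 3.34 and 3.07, and Rnd1, Rap1a and Gsk3b fell, at -2.13, -0.96 and -0.54.

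Of 35 Eph signalling partners, 12 were higher and 17 lower at Stage1 against MEF (34.3% and 48.6%), and 12 higher and 6 lower at Stage2 against Stage1 (34.3% and 17.1%). Among those with at least 5 CPM in the higher group, the largest falls at Stage1 were those of Tns1 (-4.11), Rgs3 (-3.60) and Sdcbp (-3.29), the last a PDZ protein that binds ephrin-B tails. Pard6b, a cell polarity protein, and Pick1, a PDZ protein, rose by 5.08 and 2.92, and Grb7 was at least 78.3-fold higher at Stage1, with no count in MEF. Rgs3, Kalrn and Chn1 then rose at Stage2 by 2.57, 2.35 and 1.78, and Arhgef5, Grb10 and Nck2 fell, at -1.39, -1.21 and -0.98. Of 19 tested netrin, slit and repulsive guidance molecule genes, 4 were higher and 10 lower at Stage1 (21.1% and 52.6%). Slit3, Ntn4 and Unc5b fell, at -6.77, -6.37 and -4.72, while Ntn1, the ligand of Dcc and Unc5 receptors, had 122 ± 22.4 CPM at Stage1 and 5.55 ± 3.71 CPM in MEF (4.45 ± 0.40, edgeR adjusted p = 6.80e-08). At Stage2, 4 were higher and 2 lower (21.1% and 10.5%), among them Robo1 and Neo1 (2.80 and 1.14) and Ntn1 and Rgma (-2.67 and -2.11). In iPSC against Stage2, 4 of 35, 4 of 35 and 3 of 19 genes of the 3 lists were called lower (11.4%, 11.4% and 15.8%).

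Markers of other cells that use these genes moved as well. Their calls are to be read against all genes at Stage1 against MEF. Of those, 44.2% were called higher, 36.1% lower and 80.4% in either direction. Summed over 10 neuron markers, levels were 202 to 232 CPM at Stage1 and 63.4 to 76.4 CPM in MEF, with Rbfox3, Snap25 and Elavl3 at 0 in MEF. Of the 8 tested, 6 were called higher and 2 lower at Stage1. Nefl and Stmn2 made up most of the Stage1 sum, while Tubb3 averaged 5.17 CPM at Stage1 and 25.3 CPM in MEF. The sums over 10 endothelial markers were 53.4 to 68.7 CPM at Stage1 and 16.2 to 22.8 CPM in MEF, with Tie1, Cldn5, Robo4 and Sox17 at 0 in MEF. Of the 7 tested, 5 were called higher and 1 lower, with Pecam1 at 40.9 CPM at Stage1 and 0.187 CPM in MEF and Emcn at 0.137 CPM at Stage1 and 10.05 CPM in MEF. Over 9 macrophage markers they were 28.2 to 37.5 CPM at Stage1 and 142 to 152 CPM in MEF, with 7 called lower. Over the 5 Schwann cell and neural crest markers that passed the filter the sum averaged 65.7 CPM at Stage1 and 4.19 CPM in MEF, and all 5 were called higher. No neuron, endothelial or macrophage marker was at 0 in the other 3 groups. Their part in the members' changes was not tested. MEF replicate 3 was the highest MEF library for 31 of the 49 members, 63.3% against 43.0% of all genes, and Stage1 replicate 1 the highest Stage1 library for 28, 57.1% against 39.7%. Reads outside genes made up 38.1 to 45.2% at Stage1 and 8.86 to 9.42% in MEF, and what part that had in these levels was not tested.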

How the data were processed

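RNA-seq gene counts were used for 12 libraries. Per the submitters' processing notes, the authors worked with mm10, TopHat2 2.0.9, Bowtie2 2.2.6, SAMtools 0.1.19, HTSeq 0.5.4p3 and DESeq2 1.12.4, and the deposited values are raw counts of whole reads per gene symbol. Neither the annotation version nor the strandedness is given in the sources used here. Overlapping genes on opposite strands cannot be told apart: Epha1, Epha10 and Ephb4 share up to 6.01% of their exon bases with such a gene. Nrp1 shares 0.818% of its exon bases with Mir1903 on the same strand. Reads outside genes stayed out of library sizes and tests, and made up 8.86 to 53.4% of each library's reads.

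From the counts, edgeR 4.0.16 in R 4.3.3 gave the tests (filterByExpr by group, TMM, robust quasi-likelihood fit of all 4 groups, Benjamini-Hochberg over 14770 genes, called below 0.05). SE is the size of the log2 fold change divided by √F. CPM per kb used the exon length of GENCODE M21 (GRCm38), which may differ from the authors' annotation. For a group at 0 counts, a floor of 3 counts over the group gave the fold stated as at least, with no fitted fold. It allows for counting error in the group at 0 only, not in the higher group, where that error weighs most at low counts.

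The members, gene lists and tests were chosen with earlier results of these data known. Genes named in full are members called in at least 1 comparison with at least 1 CPM in some group; of the pathway lists, at most the 3 called genes with the largest change in each direction and at least 5 CPM in the higher group. Alternatives were RLE scaling, library totals, no filter, a filter of 1 CPM in 3 libraries, DESeq2 1.42.0, a fit of only the groups compared, a replicate block, and leaving out each library. Group names from the characteristics were not tried. Schwann cell and neural crest markers were summed over those that passed the filter. Libraries of a group differed beyond sampling noise, by a chi-square per degree of freedom of 4.40 to 148.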

Additional observations from a re-analysis of the deposited data

How the results depend on the processing

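With a fit of only the groups compared, 6 members were called higher at Stage1 against MEF and 13 lower in iPSC against Stage2, against 11 and 8 in the fit of all groups. Members called higher in iPSC against Stage2, 2 in the fit of all groups, numbered 1 with library totals, 1 with no filter and 1 with DESeq2. Without 1 library, members called higher and lower ran from 11 to 13 and 26 to 28 at Stage1 against MEF, from 13 to 23 and 4 to 5 at Stage2 against Stage1, from 0 to 3 and 4 to 11 in iPSC against Stage2, and from 11 to 15 and 23 to 28 in iPSC against MEF. The cause was not tested. The labels do not say whether a shared replicate number pairs libraries. Over 18 pairs with the same number the correlation of deviations from the group means was -0.0675 to 0.197, with 3 over 0.1. With 3 libraries a group, such values cannot show that a shared embryo, culture or day is absent. With the replicate number as a block, 0 members were called higher by edgeR (Epha8 at an adjusted p of 0.0504 and Efnb1 at 0.0569) and 6 lower in iPSC against Stage2, 11 and 27 at Stage1 against MEF, 18 and 5 at Stage2 against Stage1, and 11 and 27 in iPSC against MEF. Over single members and settings, 95 values lost their call, 81 gained one and 0 called values changed sign. Library totals in place of TMM moved the median log2 fold change of all genes by 0.178 at Stage1 against MEF, 0.204 at Stage2 against Stage1, -0.0998 in iPSC against Stage2 and 0.282 in iPSC against MEF. A floor of 0.158 to 0.336 CPM, before TMM scaling, limits what the depth can show for the low members.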
